A study of Mus musculus with 4 samples.

Results

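A subset of lung alveolar macrophages was chosen by the raw UMIs (unique molecular identifiers, one per captured transcript) of 4 activation genes. A barcode was kept if it had more than 200 genes and under 15% mitochondrial UMIs. It then needed at least 1 UMI of at least 3 of Marco, Car4, Krt79, Pparg, Atp6v0d2 and Ear1, no UMI of Cd3e or Cd79a, and not both Mki67 and Top2a. Inside this gate, 2435 cells had at least 3 summed UMIs of Inhba, Il1a, Il6 and Gdf15 and became members, and 967 did not. These came from 27544 kept barcodes of 28805 deposited.

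The study asked what loss of IFT20 in T cells does in papain-induced airway inflammation. All mice were C57BL/6 with loxP-flanked Ift20. WT stands for Ift20 f/f without Cre and KO for Ift20 f/f CD4 cre, in which the Cd4 promoter drives Cre in the T lineage, so the macrophages are not the targeted cells. Papain, a protease allergen, was given intranasally at 25 µg on 3 consecutive days and again on day 14, with harvest on day 15, and DPBS was the buffer control. The study used males of 5 to 10 weeks, and live CD45.2+ lung cells were sorted before capture. Each of the 4 groups is 1 library, and the number of mice in it is not given in the sources used here. No test between groups could be made, intervals are 95% intervals that cover counting error only, and an effect of genotype or papain cannot be told apart from a difference between libraries. Where 4 values stand in a row, they are for WT with DPBS, KO with DPBS, WT with papain and KO with papain. In that order the members numbered 828, 838, 512 and 257 cells.

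Alveolar macrophages live in the air spaces, clear surfactant and inhaled particles, and depend on GM-CSF and PPARγ. On activation they can release alarmins and cytokines. Il1a encodes IL-1α, an alarmin that acts at the IL-1 receptor. Inhba encodes the subunit whose dimer is activin A, a TGF-β family ligand, Il6 encodes IL-6, and Gdf15 encodes a stress-induced cytokine of the TGF-β superfamily.

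The working name of these cells puts Inhba and Il1a first, but the values that chose them came mainly from Gdf15. It supplied 88.7, 89.8, 79.9 and 80.1% of the 4-gene UMIs. Counting members that reached the sum of 3 only through Gdf15 gave 71.0, 72.1, 63.9 and 62.3% of each library's members. Inhba had a UMI in 7.25, 8.59, 15.2 and 10.5% of them and Il1a in 58.9, 61.3, 62.9 and 64.6%. The members are therefore called Gdf15-high alveolar macrophages below, and the gated cells under the sum are called the other alveolar macrophages.

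The upstream sequence of the 4 genes is shown because these genes chose the cells. RefSeq's promoter table for GRCm38 held all 6 genes looked up. Each run is the 250 bases before the transcription start, 5′ to 3′ on the gene's strand. Capitals mark matches, on both strands, to AP-1 (TGANTCA), a cAMP response element (TGACGTCA), NF-kB (GGANTTTCC), C/EBP-ATF (TGATGNAA), a TATA box (TATAAA) or an E-box (CACGTG). Gdf15 lies at chr8:70632457-70632706 and Il1a at chr2:129309973-129310222, both on the minus strand, and Il6 at chr5:30012864-30013113 and Inhba at chr13:16011601-16011850, both on the plus strand.
Gdf15: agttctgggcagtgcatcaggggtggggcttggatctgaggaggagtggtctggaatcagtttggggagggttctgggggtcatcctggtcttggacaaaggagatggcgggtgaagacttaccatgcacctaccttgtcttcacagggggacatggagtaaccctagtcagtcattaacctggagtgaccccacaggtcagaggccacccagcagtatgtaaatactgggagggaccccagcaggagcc
Il1a: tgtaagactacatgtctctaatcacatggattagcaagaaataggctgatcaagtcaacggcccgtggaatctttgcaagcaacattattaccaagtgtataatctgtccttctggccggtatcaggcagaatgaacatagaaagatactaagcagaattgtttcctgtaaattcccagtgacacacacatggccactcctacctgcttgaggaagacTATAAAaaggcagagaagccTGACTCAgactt
Il6: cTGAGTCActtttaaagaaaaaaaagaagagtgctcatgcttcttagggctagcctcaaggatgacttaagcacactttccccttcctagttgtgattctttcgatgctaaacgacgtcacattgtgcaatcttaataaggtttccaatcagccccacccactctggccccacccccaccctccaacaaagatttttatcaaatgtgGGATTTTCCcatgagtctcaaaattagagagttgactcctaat
Inhba: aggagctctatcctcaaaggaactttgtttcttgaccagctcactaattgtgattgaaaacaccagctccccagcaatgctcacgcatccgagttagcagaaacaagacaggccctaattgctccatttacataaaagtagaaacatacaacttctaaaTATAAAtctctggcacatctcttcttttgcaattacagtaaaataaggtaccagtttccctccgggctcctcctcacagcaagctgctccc

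Il1a held TATAAA from 32 to 27 bases before its start and the AP-1 letters TGACTCA from 12 to 6 bases before it. Il6 held GGATTTTCC from 43 to 35 bases before its start and TGAGTCA from 249 to 243 bases before it. Inhba held TATAAA from 91 to 86 bases upstream, and Gdf15 held none of the 6 motifs. Among 32841 promoter windows of the same length, the AP-1 letters were found in 6.75%, the TATA letters in 12.4%, NF-kB in 1.07%, C/EBP-ATF in 3.45%, the cAMP response element in 1.55% and the E-box in 6.02%. A match is a run of letters and not a measured binding site.

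The cells carried the genes of the alveolar macrophage. Of the gate genes, Marco, a scavenger receptor, stood at 316, 235, 319.9 and 256 CPM (UMIs per 1000000 summed UMIs of the members) and Pparg, the nuclear receptor of this lineage, at 175, 171, 160.1 and 183 CPM. Gate genes aside, Mrc1, the mannose receptor, had a UMI in 99.2 to 100% of a library's members, Itgax in 98.1 to 99.2% and Siglecf, a surface lectin of these cells, in 75.6 to 88.4%. Markers of other cells were low. The 8 eosinophil, basophil and mast cell markers summed to at most 0.121 CPM, and 6 of them, Prg2, Epx, Mcpt8, Cpa3, Ms4a2 and Fcer1a, had no UMI. Dendritic cell markers summed to 8.26 to 21.4 CPM, T cell markers to 16.8 to 34.5 CPM and interstitial macrophage markers to 25.6 to 47.9 CPM, with Folr2 at 0. B cell markers summed to 41.3 to 105 CPM, against 22150 to 34060.2 CPM in B cells of the same libraries. Neutrophil markers summed to 58.2 to 165 CPM in the members and 89.5 to 422 CPM in the other alveolar macrophages, monocyte markers to 65.9 to 112 CPM and epithelial and stromal markers to 38.8 to 72.3 CPM in the members. The part of such RNA in the results was not tested.

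Members had median depths of 19283, 19726, 17272 and 20152 UMIs per cell. The other alveolar macrophages were shallower, at 16503, 15713, 14438 and 18093. Totals per library ran from 53854420 to 75675956 UMIs. The libraries shared 67 barcodes over all pairs, of which 9 were a member in 1 of the libraries and none in both.

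The summed UMIs of the 4 genes had a median of 14, 16, 12 and 15 per member, and the highest cell had 179, 208, 209 and 199. Just outside the threshold, 75, 53, 55 and 27 gated cells had a sum of 2, with median depths of 17335, 16969, 14094 and 19880 UMIs. Just inside, 56, 47, 39 and 23 cells had a sum of 3, with median depths of 17586, 18348, 16837 and 20302 UMIs. Gdf15 with Il1a and neither of the others was the commonest combination, in 43.2, 47.6, 39.6 and 38.1% of members, followed by Gdf15 alone in 36.2, 34.7, 28.3 and 29.6%. Cells with all 4 genes made up 1.69, 0.597, 4.69 and 2.72%. Across the gated cells, which share a library, the Spearman correlation of the sum with a cell's total UMIs was 0.325, 0.374, 0.322 and 0.251.

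The share of gated alveolar macrophages that were Gdf15-high was highest in the DPBS KO library and lowest in papain KO. It was 69.2% (66.5 to 71.8, 828 of 1197 cells) and 79.7% (77.1 to 82.1, 838 of 1052 cells) with DPBS and 69.8% (66.3 to 73.1, 512 of 734 cells) and 61.3% (56.5 to 66.0, 257 of 419 cells) with papain, each pair with WT first and with Clopper-Pearson intervals. The intervals of both WT libraries overlapped, while DPBS KO lay above them and papain KO below. On the log2 scale KO over WT was 0.20 (0.13 to 0.27) in DPBS. In papain it was -0.19 (-0.31 to -0.056). Papain over DPBS was 0.012 (-0.076 to 0.0998) in WT, and the KO libraries gave -0.38 (-0.50 to -0.26). With cells thinned to 5000 UMIs and at least 1 activation UMI asked for, the shares were 70.8, 82.97, 73.9 and 60.3%, after leaving out 15, 54, 51 and 1 shallower cells. With at least 3 UMIs asked for at that depth they were 48.1, 57.8, 48.5 and 36.8%.

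**Figure D1:**
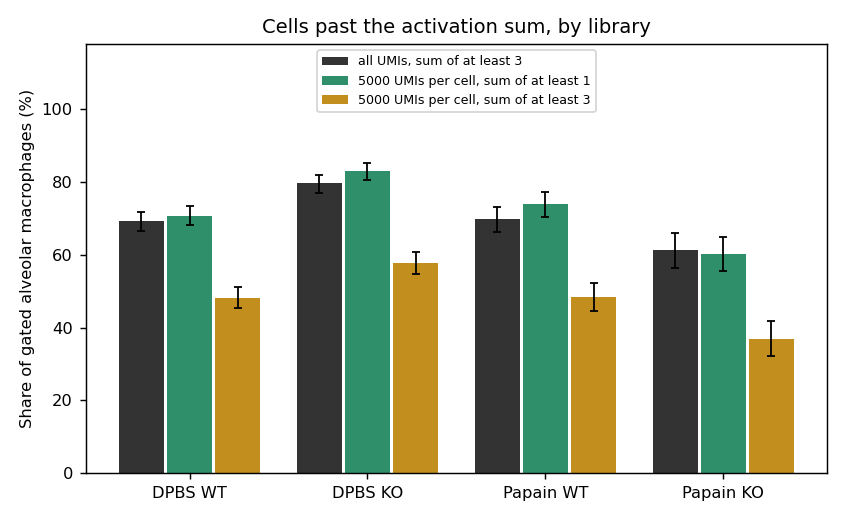
Bars give the percent of gated alveolar macrophages past the activation sum in each library (x axis), with all UMIs or with cells thinned to 5000 UMIs, and lines give 95% Clopper-Pearson intervals. DPBS KO is highest and papain KO lowest under each of the 3 definitions, at 79.7% and 61.3% with all UMIs.

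The gated cells were themselves a varying part of the libraries, at 14.7, 18.4, 9.18 and 7.35% of kept barcodes. As a share of all kept barcodes the Gdf15-high cells were 10.2, 14.7, 6.40 and 4.51%, and papain over DPBS was then -0.67 (-0.82 to -0.51) in WT, beside -1.70 (-1.90 to -1.51) in KO. These shares depend on how many other CD45.2+ cells were captured. Dividing gated cells were left out by the rule, and 62 of 82, 54 of 57, 27 of 33 and 16 of 22 of them reached the sum of 3.

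To compare the 4 genes between libraries without the selection they made, their levels were taken over all gated alveolar macrophages. Inhba stood at 4.53 (3.69 to 5.51), 8.75 (7.49 to 10.2), 18.4 (16.02 to 20.96) and 11.5 (9.33 to 14.1) CPM, with exact Poisson intervals. Papain WT was the highest library, with papain over DPBS at 2.02 (1.67 to 2.37) in WT on the log2 scale. In KO it was 0.40 (0.021 to 0.77), but 1 cell held 43 of the 96 Inhba UMIs of papain KO, and without the top cell of each library the ratio was -0.13 (-0.61 to 0.34). KO over WT was 0.95 (0.59 to 1.32) in DPBS, and 0.73 (0.34 to 1.12) without the top cells. In papain it was -0.67 (-1.03 to -0.32), and -1.37 (-1.84 to -0.93) without the top cells. An Inhba UMI was found in 5.18, 7.13, 11.9 and 7.16% of gated cells. In B cells, which should lack these transcripts and had median depths of 3909 to 4821 UMIs, the share was at most 0.0954%.

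Il6 stood at 15.7 (14.1 to 17.4), 10.7 (9.29 to 12.2), 50.1 (46.2 to 54.3) and 35.6 (31.7 to 39.9) CPM over the gated cells. Both papain libraries were above both DPBS libraries, with papain over DPBS at 1.68 in WT and 1.74 in KO. Both KO libraries were below their WT counterparts, with KO over WT at -0.55 (-0.81 to -0.30) for DPBS, and -0.49 (-0.70 to -0.29) for papain. Gated cells with an Il6 UMI made up 9.61, 7.03, 17.7 and 14.6%, against 0.281, 0.0734, 0.573 and 0.292% of B cells.

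Il1a stood at 83.02, 79.3, 108 and 84.9 CPM over the gated cells, and only the papain WT interval lay above the other 3. Papain over DPBS was 0.38 (0.27 to 0.48) in WT, against 0.097 (-0.033 to 0.23) in KO. The share of cells ranked otherwise. An Il1a UMI was found in 46.4, 53.4, 49.9 and 46.8% of gated cells, highest in DPBS KO. For this share papain over DPBS was 0.10 (-0.034 to 0.24) in WT and -0.19 (-0.36 to -0.023) in KO. For papain over DPBS in WT, the level of Gdf15 moved the other way from the Il1a CPM. For KO over WT in papain both were lower, Il1a at -0.35 (-0.48 to -0.21) and Gdf15 at -0.41 (-0.47 to -0.36). Gdf15 was at 782, 848, 686 and 515 CPM, lower in each papain library than in its DPBS counterpart. Its ratio of papain over DPBS was -0.19 (-0.23 to -0.15) in WT, against -0.72 (-0.77 to -0.67) in KO. A Gdf15 UMI was found in 78.9, 85.8, 77.1 and 66.6% of gated cells and in 4.68, 6.83, 2.39 and 3.51% of B cells.

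**Figure D2:**
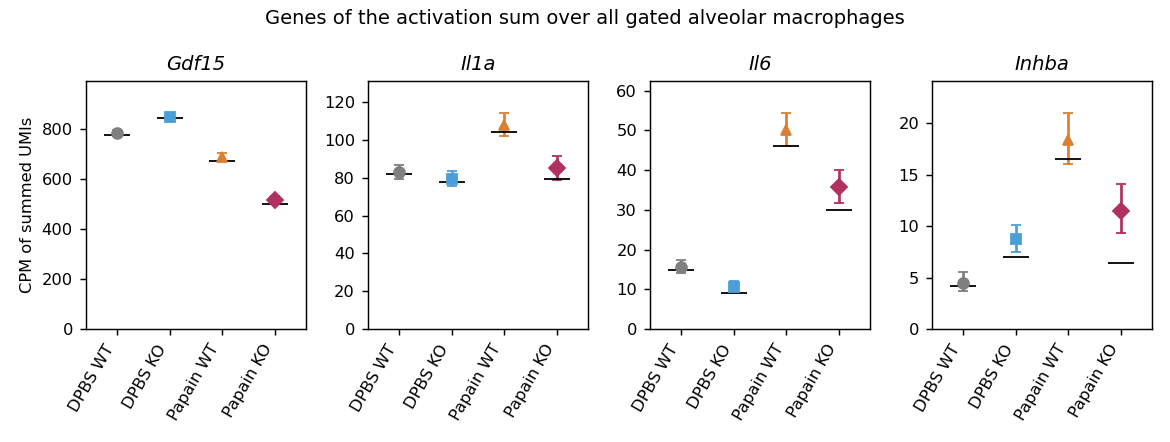
Points give CPM over all gated alveolar macrophages in each library (x axis) with exact Poisson intervals, and black dashes give the level without the cell that holds most UMIs of the gene. Il6 is higher in both papain libraries, Gdf15 is lowest in papain KO, and the Inhba level of papain KO goes from 11.5 to 6.38 without 1 cell.

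The members were next set against the other alveolar macrophages of the same library. The activation sum chose both classes, so these values are a description with no test. Of 3104 genes outside the rule with a mean of at least 50 CPM, 5 were at least 2-fold higher in each of the 4 libraries (0.161%), and none was at least 2-fold lower (0%). Without a size limit 744 were higher in each library (24%) and 705 lower (22.7%). The 5 genes were Cxcl1, Slc7a11, Cxcl2, Mt2 and Hilpda.

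Cxcl1, a neutrophil chemokine, stood at 89.9, 39.1, 83.6 and 141 CPM in the members and 21.1, 8.50, 19.7 and 31.4 CPM in the other cells. The classes did not overlap, and the mean log2 ratio was 2.14 ± 0.057 (SD, n = 4 libraries). Cxcl2, which acts at the same receptor, stood at 1389.8, 763, 1289 and 1726 CPM in members against 283, 269, 369.7 and 413 CPM. Its mean log2 ratio was 1.92 ± 0.34, again with no overlap. Their promoters are printed because they had the highest ratios of the 7 genes compared on the chemokine list, with the same capitals as above. Cxcl1 lies at chr5:90890995-90891244 and Cxcl2 at chr5:90903649-90903898, both on the plus strand.
Cxcl1: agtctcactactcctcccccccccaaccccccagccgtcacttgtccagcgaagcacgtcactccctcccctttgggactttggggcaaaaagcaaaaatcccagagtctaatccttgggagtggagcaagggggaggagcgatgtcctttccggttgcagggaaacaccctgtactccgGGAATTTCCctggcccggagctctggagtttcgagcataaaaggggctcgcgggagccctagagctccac
Cxcl2: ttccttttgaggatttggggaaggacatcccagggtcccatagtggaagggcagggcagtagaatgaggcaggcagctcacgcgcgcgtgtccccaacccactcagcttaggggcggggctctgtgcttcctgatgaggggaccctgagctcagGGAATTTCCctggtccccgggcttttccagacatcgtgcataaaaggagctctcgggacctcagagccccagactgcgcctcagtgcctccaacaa

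Both windows held GGAATTTCC, from 70 to 62 bases before the start of Cxcl1 and from 96 to 88 bases before that of Cxcl2, where 1.07% of all windows held the NF-kB letters. These offsets are from the RefSeq start, which lies 4 bases past the GENCODE start for Cxcl1 and 28 past it for Cxcl2. Of the 7 genes compared on the chemokine list, 5 were higher in each library and none was lower in each, where all genes gave 24% and 22.7%. The others of the 5 were Ccl6, Ccl9 and Ccrl2, the last a receptor-like gene and not a chemokine.

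Slc7a11, the cystine transporter, stood at 121, 95.2, 148 and 156 CPM in members and 15.9, 25.8, 43.8 and 44.1 CPM in the other cells, a mean log2 ratio of 2.10 ± 0.56. Mt2 and Mt1, metallothioneins that bind zinc and copper, had mean log2 ratios of 1.61 ± 0.28 and 0.96 ± 0.16. Hmox1, heme oxygenase, stood at 928, 433, 609 and 607 CPM in members against 232, 231, 358 and 223 CPM. On the NRF2 and oxidative stress list 10 of 11 genes compared were higher in each library and none was lower, beside 24% and 22.7% of all genes. The median log2 ratio of the list was 0.72, against -0.00073 over all genes. Hilpda, which inhibits lipolysis at lipid droplets, was at 642, 591, 589.6 and 455 CPM in members and 197, 282, 263 and 154 CPM elsewhere, with no overlap.

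On the list of NF-kB targets and feedback genes 11 of 12 were higher in each library, with a median log2 ratio of 0.49. Beside this list and the cytokine list below, 24% of all genes were higher in each library. Nfkbiz, a nuclear IκB protein, stood at 78.8, 51.2, 93.7 and 120.1 CPM in members and 20.8, 28.5, 37.7 and 48.8 CPM elsewhere. Tnfaip3, the A20 deubiquitinase, had a mean log2 ratio of 1.11 ± 0.32, and Nlrp3, the inflammasome sensor, 1.18 ± 0.36. Of 5 genes compared on the proinflammatory cytokine list, Il1b, Tnf, Osm and Il1rn were higher in each library. Il1rn encodes the IL-1 receptor antagonist and is not itself a proinflammatory cytokine gene. Tnf was at 151, 101.4, 143 and 208.5 CPM in members and 33.7, 52.3, 45.8 and 70.1 CPM in the other cells. Among those 4, Il1b varied most, with log2 ratios of 1.66, 0.098, 0.93 and 2.25. The transcription factors Nr4a3, Maff and Tgif1 and the EGF-family ligand Areg completed the 15 higher genes, with mean log2 ratios of 1.08, 0.999, 1.07 and 1.05.

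The lower genes differed less. Klf2, a transcription factor that restrains inflammatory genes, stood at 169, 199, 193 and 205.3 CPM in members and 303, 332, 251 and 396 CPM in the other cells. Txnip, which inhibits thioredoxin, had a mean log2 ratio of -0.69 ± 0.084, Tsc22d3, the glucocorticoid-induced leucine zipper, -0.71 ± 0.13 and Clec2d -0.78 ± 0.20. S100a6, Cebpd, Rgs2, Tifab, P2ry6, Fam46a, Ifi27l2a and Emilin1 completed the 12, with means from -0.61 to -0.41. With cells of matched depth, Ifi27l2a lost its direction in at least 1 library, and the other 26 named genes did not.

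**Figure D3:**
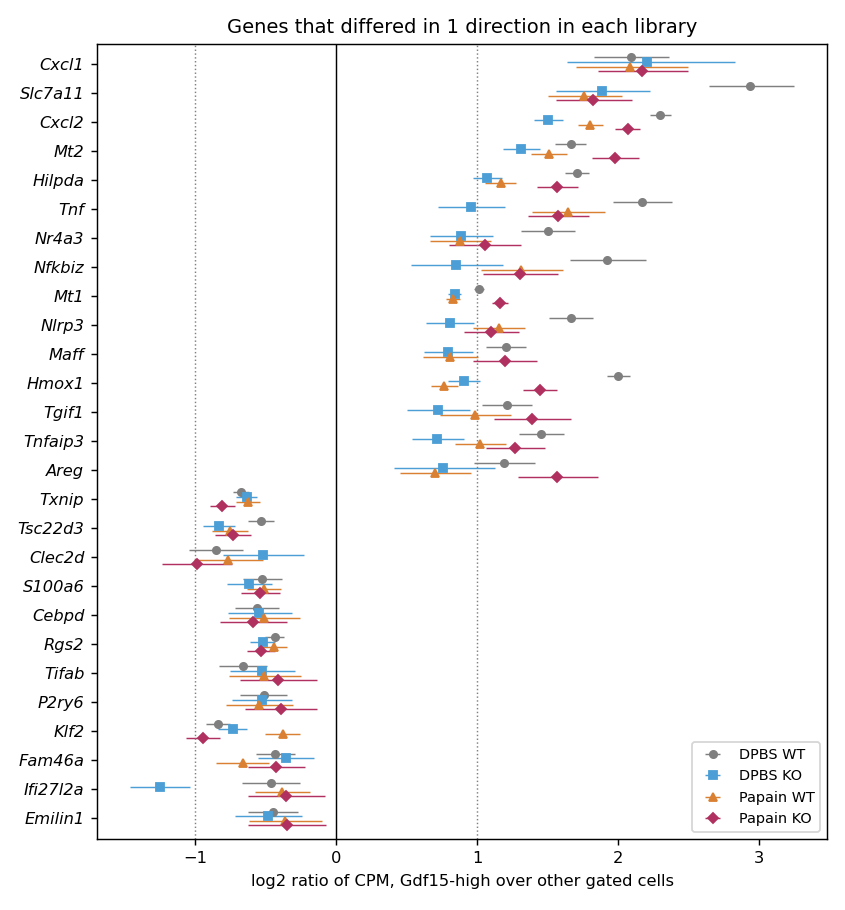
Each symbol is 1 library's log2 ratio of CPM, Gdf15-high over other gated cells (x axis), with its exact counting interval, for 15 higher and 12 lower genes. Dotted lines mark 2-fold, and the 4 libraries lie on 1 side of 0 for every gene shown.

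Identity genes were close to level. The 20 genes of the alveolar macrophage identity list had a median log2 ratio of 0.0039, with 8 higher and 4 lower in each library. Over all genes 24% were higher and 22.7% lower in each library. Siglecf stood at 185, 164, 133 and 146 CPM in the members and 186, 156, 134 and 143 CPM in the other cells, so the classes overlapped. Ear2, a ribonuclease whose close copies can share its reads, was lower in each library, at -0.31, -0.28, -0.28 and -0.25 on the log2 scale. On the eicosanoid list Alox5, Alox5ap and Ltc4s, which act in leukotriene synthesis, were lower in each library and none of 5 was higher. MHC class II genes had a median log2 ratio of -0.50 over 6 genes, but by library the medians were 0.027, -0.86, -0.20 and -1.06, near level in DPBS WT, with H2-DMa and H2-DMb1 lower in each library.

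Partners of the selection genes were then read. In the activin and TGF-β list, 3 of 17 genes reached 50 CPM, and Tgfbr2 and Skil, a SMAD corepressor, were higher in each library, by 0.56, 0.45, 0.43 and 0.66 for Skil on the log2 scale. The activin receptor genes Acvr1b (26.8 to 29.04 CPM), Acvr2a (3.12 to 4.68 CPM) and Acvr2b (7.06 to 8.06 CPM) were low in the members, as was the activin inhibitor Fst (0.687 to 2.44 CPM). Inhbb had no UMI, and 3 counts per library would be 0.181 to 0.562 CPM. The IL-1 receptor gene Il1r1 was at 0.749 to 1.499 CPM, and the receptor antagonist gene Il1rn at 167 to 196 CPM. The IL-6 receptor genes Il6ra (93.3 to 119.9 CPM) and Il6st (53.8 to 66.0 CPM) were present, and Stat3 was higher than in the other cells, with log2 ratios of 0.28, 0.14, 0.21 and 0.17.

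Stress genes, which tissue digestion and sorting can induce, were read beside these results. On the immediate early list 8 of 21 genes were higher and 5 lower in each library, with a median log2 ratio of 0.14. The shares over all genes were 24% higher and 22.7% lower. Fos stood at 981, 871, 840.3 and 970.3 CPM in members and 1108, 1074, 943 and 1292 CPM in the other cells. None of 11 heat shock genes was higher or lower in each library, and the median was 0.12. On the integrated stress response list 5 of 8 genes were higher in each library, Atf3, Atf4, Sqstm1, Cebpb and Slc3a2, with a median of 0.20. Ddit3, the CHOP gene, had log2 ratios of 0.12, 0.43, -0.10 and 0.050. The part of cell handling was not tested.

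The members were also binned by their sum. The same sum picked the genes read here, so the values only describe the selection. In bins of 3 to 5 and of at least 30 UMIs, the higher bin was deeper, with medians of 21079, 22163, 19717 and 21699 against 17442, 18646, 15904 and 18828 UMIs. Cxcl2 went from 752 to 2588, 445 to 1304, 753 to 2470.3 and 572 to 3255 CPM between these bins. The fold between them was 2.95 to 6.73 for Tnf, 2.997 to 4.10 for Slc7a11 and 2.84 to 3.49 for Hmox1 across the libraries. It was 1.18 to 2.80 for Nr4a3 and 1.27 to 1.70 for Mt1. Through bins starting at 3, 6, 15 and 30 UMIs, 3 of the 15 higher genes rose at each step in all 4 libraries. Cxcl2 and Tnf did so in 2.

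**Figure D4:**
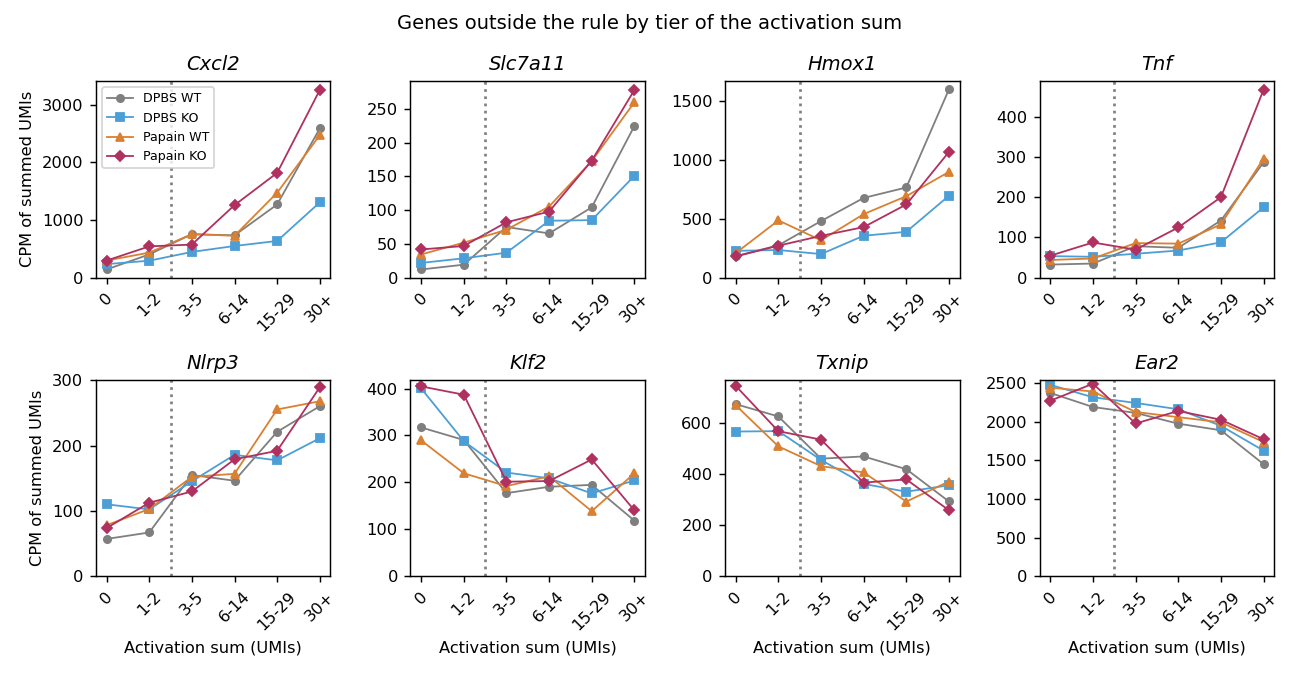
Lines give CPM (y axis) of 8 genes outside the rule in gated cells binned by their activation sum (x axis), 1 line per library, and the dotted line separates the members on its right. Cxcl2, Slc7a11, Hmox1, Tnf and Nlrp3 are higher in the top bin than in the bin of 3 to 5 in each library, and Ear2 is lower.

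Members with an Inhba or an Il6 UMI were looked at separately because these genes mark few cells. This split was chosen after the values were seen and uses genes of the rule, so it is a description. It held 18.7% (16.1 to 21.5, 155 cells), 16.3% (13.9 to 19.03, 137 cells), 31.4% (27.4 to 35.7, 161 cells) and 28.4% (22.97 to 34.3, 73 cells) of the members. Both papain libraries were above both DPBS libraries. Median depth was 19961, 20183, 18294 and 20920 UMIs, against 19103, 19676, 17088 and 19928 in the remaining members. Of 3087 genes compared, Cxcl1, Cxcl2, Il1b, Nfkbiz, Slc7a11 and Clec4e were at least 2-fold higher in each library (0.194%), and none was at least 2-fold lower (0%). Il1b stood at 523, 294, 1169 and 998 CPM with such a UMI and 203, 95.1, 318 and 317 CPM without. Clec4e, the Mincle receptor, stood at 137, 85.3, 107 and 121 CPM with and 62.4, 33.2, 44.3 and 45.7 CPM without.

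The Gdf15-high cells were then compared between libraries, for genes outside the rule. The 4 comparisons use the same 4 libraries and are not independent. In WT, papain over DPBS gave 12 genes at least 2-fold higher among 3068 (0.391%) and none lower (0%). In KO it gave 12 higher among 3151 (0.381%) and none lower (0%). KO over WT gave none higher (0%) and 6 lower (0.193%) among 3116 genes in DPBS, and 2 higher (0.0646%) and 5 lower (0.161%) among 3096 in papain. Counting instead the genes whose interval lay above and below 0 gave 18.3% and 30.1% for papain over DPBS in WT, with 13.2% and 17.6% in KO. For KO over WT these were 25.1% and 14.5% in DPBS, with 22.9% and 12% in papain. With 4 of the 6 gate genes required, the numbers of genes past 2-fold were 6 for papain over DPBS in KO and 4 for KO over WT in papain.

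Papain WT was the highest library for Chil3, a chitinase-like protein that shares sequence with Chil4. It stood at 11834, 13034, 33174 and 15369.5 CPM, with papain over DPBS at 1.49 in WT and 0.24 in KO. Ccl17, a chemokine that draws CCR4-bearing T cells, stood at 1.37, 12.8, 158 and 20.05 CPM and had a UMI in 2.17, 5.97, 16.6 and 6.23% of members. Papain over DPBS was 6.85 (6.24 to 7.52) in WT, against 0.65 (0.30 to 0.99) in KO. In papain KO 1 cell held 81 of the 107 Ccl17 UMIs, and without the top cells KO over WT in papain was -4.90 instead of -2.98.

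Mmp12, the macrophage elastase, stood at 7.12, 8.02, 148 and 46.8 CPM, with papain over DPBS at 4.38 (4.10 to 4.67) in WT, and 2.55 (2.24 to 2.86) in KO. AA467197 stood at 2.44, 6.39, 104 and 26.2 CPM. Rnase2a, a ribonuclease with close copies in the genome, stood at 0.874, 7.65, 89.3 and 13.9 CPM in 0.242, 0.955, 12.3 and 2.33% of members. Of its 74 UMIs in papain KO, 55 came from 1 cell, and without the top cells KO over WT in papain was -4.50 instead of -2.69. Arg1, named after its values were seen, had 8, 7, 419 and 16 UMIs, 146 of those in papain WT in 1 cell. Papain WT was the highest library for each of these genes. Within papain, KO over WT came to -1.11 (-1.12 to -1.10) for Chil3, -1.66 (-1.86 to -1.46) for Mmp12 and -1.99 (-2.25 to -1.73) for AA467197.

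The same directions were seen in the other alveolar macrophages for papain in WT. Papain over DPBS in WT was 1.51 for Chil3, 8.70 for Ccl17, 4.14 for Mmp12 and 5.59 for AA467197 there. All 12 genes past 2-fold for papain in WT were higher in the other cells too. The 7 genes past 2-fold for KO over WT in papain also kept their direction there. Chil3 was at -1.33, Ccl17 at -3.59, Mmp12 at -3.84 and AA467197 at -3.18, while the interval of Cxcl10 (0.36, -0.73 to 1.48) included 0. How often all genes shared a direction is not given here. For papain in KO, Mmp12 and AA467197 went the other way there, against 2.55 and 2.04 in the members. They were at -2.62 (-3.17 to -2.11) and -2.35 (-2.92 to -1.81) in the other cells. These rest on 36 and 34 UMIs in papain KO, against 226 and 177 in DPBS KO. How many of them single cells held is not given here.

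In KO, the genes past 2-fold with papain included cytokines and chemokines. Il1b, the IL-1β gene, stood at 265, 128, 593 and 523 CPM, and papain over DPBS was 1.16 (1.10 to 1.22) in WT, against 2.03 (1.94 to 2.11) in KO. For Cxcl1 the ratio was -0.11 (-0.23 to 0.023) in WT, against 1.85 (1.70 to 2.01) in KO. Cxcl10, an interferon-induced chemokine, was at 26.0, 19.3, 36.1 and 81.1 CPM, with 0.47 in WT and 2.07 in KO. Areg was at 77.4, 40.9, 84.6 and 123 CPM, with 0.13 in WT and 1.59 in KO. DPBS KO was the lowest library for these 4 genes, and papain KO the highest for Cxcl1, Cxcl10 and Areg.

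Of the 12 genes past 2-fold for papain in KO, 8 were also higher in the other alveolar macrophages. The share of all genes with a shared direction is not given here, so the 8 have no baseline. Il1b and Cxcl10 were at -0.12 (-0.34 to 0.096) and -0.19 (-1.19 to 0.79) there, and Apoe went the other way at -0.43 (-0.74 to -0.12). The neutrophil genes S100a8 and S100a9 were at 32.1, 28.1, 25.4 and 63.7 CPM and 28.9, 16.9, 15.3 and 66.1 CPM in the members, with 130 and 169 of their papain KO UMIs each in 1 cell, and Ly6g had at most 1 UMI per library. Their part in the Il1b values was not tested. S100a4, a calcium-binding protein, was at 29.7, 32.3, 42.4 and 94.6 CPM. Apoe, a lipid carrier, stood at 36.7, 42.3, 108 and 115 CPM, but 1 papain KO cell held 218 of 612 UMIs, and without the top cells its ratio in KO was 0.92 instead of 1.44. Spp1, osteopontin, named after its values were seen, had 2132 of its 3885 papain KO UMIs in 1 cell.

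In DPBS, the 6 genes past 2-fold lower in KO than in WT were Hspa1b, Hspa1a, Cxcl1, Hsph1, Hmox1 and Il1b. With the mean of per-cell CPM 5 passed, and Hmox1 was at -0.97. Hspa1a, an inducible HSP70 gene nearly identical to Hspa1b, stood at 1639.7, 559, 904 and 588 CPM. Its KO over WT ratio was -1.55 (-1.59 to -1.52) in DPBS, against -0.62 (-0.68 to -0.56) in papain. In the other alveolar macrophages these ratios were -0.63 and 0.32. In DPBS, KO over WT in those cells was 0.52 (0.32 to 0.72) for Il1b, the opposite direction. It was -0.0058 (-0.14 to 0.13) for Hmox1, -0.21 (-0.44 to 0.025) for Hsph1, -0.53 for Hspa1b and -1.31 for Cxcl1. In the members all 11 heat shock genes compared had intervals below 0 in both KO over WT comparisons. Their medians were -0.65 in DPBS and -0.35 in papain, against 0.022 and 0.040 over all genes. Over all genes 453 of 3116 and 373 of 3096 intervals lay below 0. The list summed to 11139, 7261, 8383 and 7081 CPM in the members, 8900.1, 7612, 7541 and 7927 CPM in the other alveolar macrophages and 9725, 6988, 9834 and 8265 CPM in B cells, where both KO libraries were below their WT counterparts. Of 22 immediate early genes, KO over WT had 2 intervals above 0 and 16 below in DPBS, against 10 above and 5 below in papain. All genes gave 25.1% above and 14.5% below in DPBS, with 22.9% and 12% in papain. Handling and genotype cannot be told apart here.

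**Figure D5:**
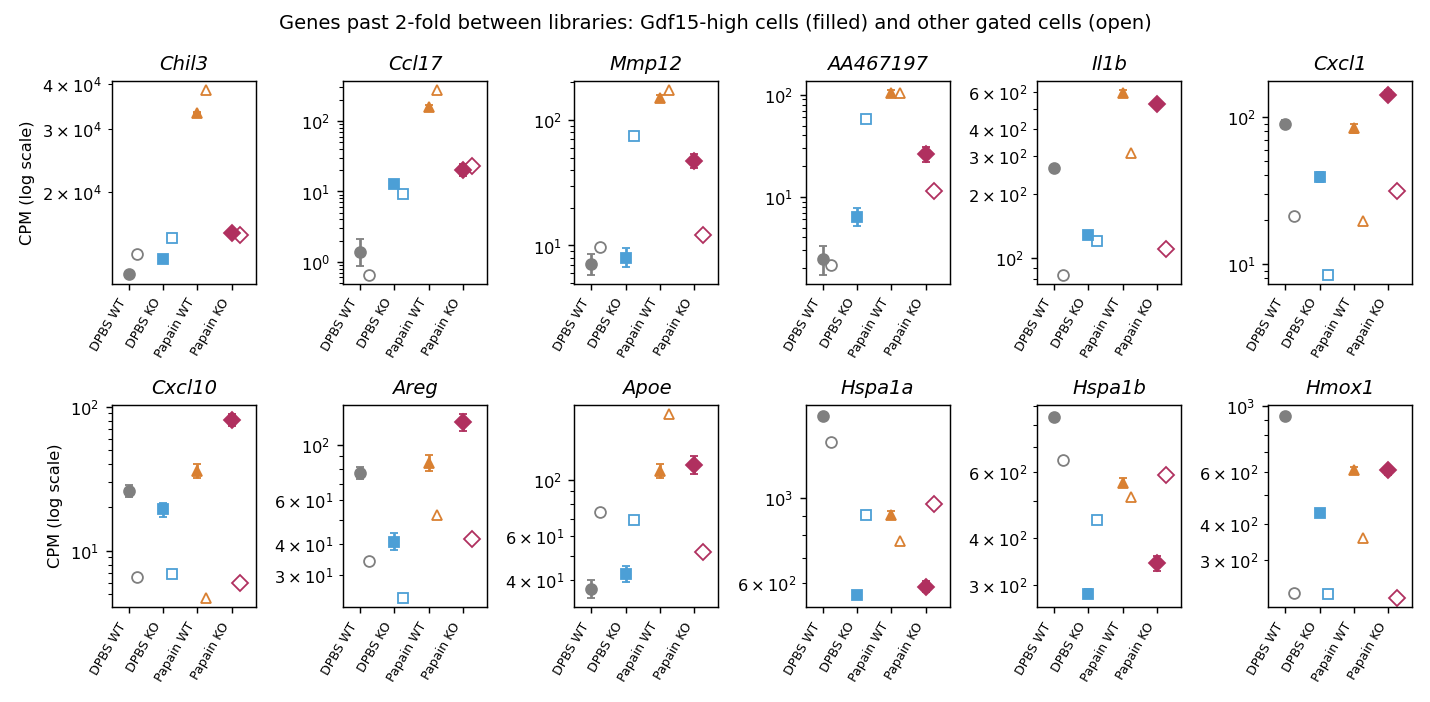
Filled symbols give CPM (log scale) in Gdf15-high cells of each library (x axis) with exact Poisson intervals, and open symbols give the other gated cells, without intervals. In the filled symbols Chil3, Ccl17, Mmp12 and AA467197 peak in papain WT, Cxcl1, Cxcl10 and Areg in papain KO, and Hspa1a, Hspa1b and Hmox1 in DPBS WT.

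With papain, the list of sterol synthesis and uptake had a median log2 ratio of 0.44 in WT and 0.52 in KO, with 5 of 6 and 6 of 6 intervals above 0. MHC class II genes had medians of 0.40 and 0.52, also with 5 of 6 and 6 of 6 intervals above 0, and summed to 1636, 1630.5, 2061 and 2132 CPM. B cell markers in the members stood at 52.3, 41.3, 90.5 and 105 CPM beside them, and the part of B cell RNA was not tested. Over all genes 561 of 3068 intervals in WT and 415 of 3151 in KO lay above 0, with medians of -0.031 and -0.013. None of the genes on either list passed 2-fold. On the alternative activation list 2 of 6 genes were past 2-fold higher with papain in WT and 0 of 5 in KO. Ift20, whose deletion 3′ counts do not measure, was at 55.6, 59.5, 68.0 and 58.1 CPM in these macrophages.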

How the data were processed

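Single-cell RNA-seq of 4 libraries, 1 per group, was analysed. Per the labels and file headers, the authors made the deposited UMI counts per gene and barcode with Cell Ranger (3.1.0 in the headers) on mm10. The matrices hold 5863 to 8552 barcodes, and whether doublets were removed before deposit is not given in the sources used here. The thresholds of 200 genes and 15% mitochondrial UMIs follow the study's methods for another of its experiments.

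Members, gene lists and the rule for named genes were chosen with earlier results of these data known. UMIs were summed per library and class and divided by the sum (CPM). Levels carry exact Poisson, shares Clopper-Pearson, log2 share ratios Katz and log2 CPM ratios exact conditional intervals, at 95% and for counting error only. With 1 library a group no p-value was computed. Genes were called at 2-fold with a mean of at least 50 CPM. Named genes were the 15 higher and 12 lower with the largest smallest ratio over the 4 libraries, up to 6 per direction and comparison, and members of the lists. CPM does not correct for gene length, so levels were compared within a gene. B cells (at least 2 Cd79a UMIs, no Cd3e, no gate gene) were the reference for free RNA. Doublets were scored with Scrublet (scanpy 1.11.5) and kept, except in 1 alternative that left out 20, 15, 19 and 13 members, and TMM factors came from edgeR 4.0.16, used for scaling only. The interval code was tested on simulated data. Gene positions came from GENCODE (GRCm38, the files' build) and promoters from RefSeq. Python 3.11.15, numpy 2.4.6 and scipy 1.17.1 were used.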

Additional observations from a re-analysis of the deposited data

Results flagged for a closer look

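Several values moved in opposite directions in the 2 arms of a contrast, with both counting intervals leaving out 0. Each arm is 1 library against 1 library, so the difference between arms was not tested. For KO over WT in DPBS and then in papain, the log2 ratio of the Gdf15-high share was 0.20 and -0.19. Over all gated cells Inhba was at 0.95 and -0.67 and Gdf15 at 0.12 and -0.41. In papain KO 1 cell held 43 of the 96 Inhba UMIs, and in DPBS KO 1 cell held 35 of 172. Without the top cells Inhba was at 0.73 (0.34 to 1.12) in DPBS and -1.37 in papain. For the share of gated cells with an Inhba UMI, the ratios were 0.46 (-0.0095 to 0.93) and -0.73 (-1.30 to -0.15), so the DPBS interval included 0. In the Gdf15-high cells, genes higher in DPBS KO and lower in papain KO than in WT were Ccl17 at 3.22 and -2.98, Rnase2a at 3.13 and -2.69, AA467197 at 1.39 and -1.99, Chil3 at 0.14 and -1.11 and S100a6 at 0.16 and -0.15. The reverse held for Cxcl1 at -1.20 and 0.75, Cxcl10 at -0.43 and 1.17 and Areg at -0.92 and 0.55. In DPBS WT, Ccl17 rested on 22 UMIs and Rnase2a on 14, of which 13 were in 1 cell.

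For papain over DPBS in WT and then in KO, 3 of the 11 heat shock genes compared and Hmox1 went opposite ways. Hspa1b was at -0.58 and 0.27, Hspa1a at -0.86 and 0.072, Hsph1 at -0.59 and 0.19 and Hmox1 at -0.61 and 0.49. DPBS WT was the highest library for each. All 11 heat shock genes had intervals below 0 in WT, while in KO 3 lay above 0, 3 below and the others included it.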

How the results depend on the processing

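Of the log2 ratios of the Gdf15-high share recomputed under other settings, 26 stayed inside their counting interval, 6 moved out of it, and none changed sign where that interval left out 0. At 5000 UMIs per cell and a sum of at least 3, KO over WT in papain was -0.40 and papain over DPBS in KO -0.65. Over all kept barcodes, KO over WT was 0.53 in DPBS and -0.51 in papain, and papain over DPBS was -0.67 in WT and -1.70 in KO, since the gated share itself differed. Of the recomputed counts of genes past 2-fold, 41 stayed within 1.5 times of the value given and 11 did not. With 4 of the 6 gate genes required, 4 genes passed for KO over WT in papain and 6 for papain over DPBS in KO. At a mean of at least 10 CPM, 29 genes passed for KO over WT in papain (11 higher), 47 for papain over DPBS in WT (40 higher) and 41 in KO (39 higher). With any gene of at least 1 UMI in each library, which admits genes of a few counts, the numbers were 1120 and 1080 for KO over WT in DPBS and papain and 1253 and 1433 for papain over DPBS in WT and KO. For Gdf15-high against other cells in all 4 libraries that setting gave 20 genes, 8 of them lower, and the mean of per-cell CPM gave 3.

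Among ratios of single genes, Inhba over all gated cells turned from 0.40 to -0.13 for papain over DPBS in KO without its top cells. With 4 of the 6 gate genes, Apoe for the same comparison was at 0.082 and Chil3 for KO over WT in papain at -0.93. Low genes and genes held by 1 cell limit what these libraries can show. No paired analysis was possible because each group is 1 library. No replicate could be left out for the same reason.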

Other observations

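Genes of lipid handling were mostly higher in the Gdf15-high cells than in the other alveolar macrophages, again as a description. On the lipid handling list 8 of 13 genes were higher in each library and 2, Npc2 and Acp5, lower, with a median log2 ratio of 0.16. Beside this and the lists below, 24% of all genes were higher in each library and 22.7% lower. Plin2, which coats lipid droplets, had log2 ratios of 0.33, 0.25, 0.28 and 0.23 in the order of libraries used above. Abcg1, a cholesterol exporter, had 0.067, 0.056, 0.14 and 0.055. On the lysosome list 6 of 11 genes were higher in each library and 1 lower, with a median of 0.047.

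Receptors and matrix genes were mixed. Tlr2, Cd14, Clec4n and Cd36 of the pattern recognition and scavenger list were higher in each library, and the formyl peptide receptor genes Fpr1 and Fpr2 were lower. Cd14, the co-receptor for lipopolysaccharide, had log2 ratios of 1.05, 0.33, 0.63 and 0.93. On the matrix, adhesion and proteolysis list Mmp19, Plaur and Cd44 were among the genes higher in each library, and F7 and Fn1, coagulation factor VII and fibronectin, lower. On the glycolysis and hypoxia list 3 of 11 genes were higher and 3 lower in each library, near the 24% and 22.7% over all genes. Outside the gate, 318, 246, 396 and 177 kept barcodes reached the activation sum of 3.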
